A study of Mus musculus with 7 samples.

Results

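The transcripts described here encode the cytokines interleukin-12 (IL-12), IL-23, IL-27 and IL-10 and the receptor chains that bind IL-12 and IL-10. The 10 genes were taken by name from a table of 23420 gene rows: the ligand subunit genes Il12a, Il12b, Il23a, Il27, Ebi3 and Il10, and the receptor genes Il12rb1, Il12rb2, Il10ra and Il10rb. All 10 had a single row. RNA came from frozen heart ventricle (the tissue label reads whole mouse heart) of untreated mice aged 3 to 6 weeks, and bulk total RNA was sequenced. The 4 control mice were Ctla4+/+;Pdcd1-/- and the 3 mice with a myocarditis that models the reaction to immune checkpoint inhibitors (ICI-myocarditis) were Ctla4+/-;Pdcd1-/-. Every animal, controls included, was thus labelled as lacking Pdcd1, which encodes the inhibitory T cell receptor PD-1, and the groups differed in the number of Ctla4 copies. A Pdcd1+/+ group was not analysed here.

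The IL-12 family is built from shared subunits. The p40 chain, encoded by Il12b, pairs with p35 (Il12a) to form IL-12 and with p19 (Il23a) to form IL-23, while EBI3 pairs with p28 (Il27) to form IL-27. Dendritic cells and macrophages are the usual sources of these cytokines, and IL-12 acts on T cells and natural killer (NK) cells through IL-12Rβ1 and IL-12Rβ2 and the transcription factor STAT4. IL-10 restrains activated macrophages and dendritic cells through IL-10Rα, found mainly on leukocytes, and the widely expressed IL-10Rβ.

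Libraries held from 20931730 to 39037176 reads assigned to genes. Values are normalized counts, that is reads divided by a size factor of the library. A single read was worth 0.725 to 1.25 normalized counts. Of the targeted genes, Pdcd1 still had 2 to 198 reads in each control and 1447 to 1754 in each ICI-myocarditis library, and Ctla4 had 29.2 to 113 normalized counts in controls and 251 to 373 in ICI-myocarditis. The exons from which these reads came are not known, so neither gene checked the genotype labels. Heart muscle markers were abundant in all 7 libraries (6 of 6 listed genes had reads). Control 2 stood apart from the other controls, with 2874 normalized counts of the leukocyte gene Ptprc against 483 to 1108 in controls 1, 3 and 4.

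Of the 10 transcripts, 6 were higher in ICI-myocarditis, namely Il12b, Il27, Ebi3, Il10, Il12rb1 and Il10ra. Il12rb2 and Il10rb did not pass the test, and Il12a and Il23a were too near 0 to be measured. The test was limma on log2(normalized count + 1) over 15258 genes, with a threshold of 0.05 on the Benjamini-Hochberg adjusted p. A gene was tested where 3 or more libraries reached 10 normalized counts, which held for 8 of the 10. Over all genes tested, 15.7% passed in either direction and 11.7% passed as higher. Every ICI-myocarditis library lay above every control for the same 6 genes, and for 17.3% of all genes tested. Il12b, Il27, Il10 and Il12rb1 met that limit only with the help of their ICI-myocarditis libraries, so the count of 6 is a description and supports nothing further. All log2 fold changes give ICI-myocarditis relative to control. In limma 1 was added to each value, and fold changes from another constant or another test are named as such. Those of low genes depend on this constant and on the model. The median log2 fold change over all genes tested was -0.02.

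Il12b, the subunit gene shared by IL-12 and IL-23, lies at chr11:44400063-44414033 on GRCm38. It had 1.01, 11.1, 2.23 and 0 normalized counts in controls 1 to 4 and 40.9, 56.5 and 39.7 in ICI-myocarditis 1 to 3. In reads these were 1, 9, 2 and 0 against 40, 78 and 52. Control 2 was the highest control and still lay below each ICI-myocarditis heart. Il12b rose by 3.95 (SE 0.784, limma adjusted p = 0.0107). With a pseudocount of 5 the log2 fold change was 2.71, and without control 2 it was 4.63, both past the threshold. Its partner genes did not reach a level that could be compared. Il12a (chr3:68690644-68698547), which encodes p35, had 2, 2, 8 and 1 reads in controls and 0, 11 and 3 in ICI-myocarditis. Il23a (chr10:128296139-128298752), which encodes p19, had 3, 1, 0 and 1 reads against 7, 2 and 5. For both genes most libraries lay at or near 3 reads and the groups overlapped, so they are given as not measured and no fold is stated. IL-12 and IL-23 are secreted as pairs, and these libraries therefore measured the shared subunit transcript only.

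Il27, encoding p28, had 1.01, 6.17, 3.35 and 2.50 normalized counts in controls and 58.3, 57.3 and 87.9 in ICI-myocarditis (chr7:126589010-126594941). Controls thus held 1 to 5 reads each, while the ICI-myocarditis libraries held 57, 79 and 115. Il27 rose by 4.13 (SE 0.521, limma adjusted p = 0.00316), and by 3.15 with a pseudocount of 5. Ebi3, its partner, lies at chr17:55952640-55957022. Ebi3 was present in every control, at 23.2, 29.6, 20.1 and 15.01 normalized counts, and reached 88.0, 119.6 and 196 in ICI-myocarditis. Ebi3 rose by 2.52 (SE 0.390, limma adjusted p = 0.00457). Both IL-27 subunit transcripts were therefore higher in all 3 affected hearts, with no overlap between groups. Exons of Il27 share 103 of 1021 bases with Apobr on the other strand, and whether the authors' counting used strand is not given in the sources used here. Apobr had 23.8 to 113 normalized counts in controls and 252 to 669 in ICI-myocarditis, and unless counting used strand its reads cannot be told apart from those of Il27 in that stretch. For every 1000 normalized counts of Apobr there were 21.3 to 105 of Il27 in controls and 131 to 232 in ICI-myocarditis.

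Il10 encodes the anti-inflammatory ligand (chr1:131019845-131024974). It had 14.1, 12.3, 0 and 2.50 normalized counts in controls and 64.5, 69.6 and 131 in ICI-myocarditis. Controls 1 and 2 held 14 and 10 reads and controls 3 and 4 held 0 and 2, a spread wider than for Il27. The groups did not overlap. Il10 rose by 4.04 (SE 0.902, limma adjusted p = 0.0171). This was the least stable of the 6 calls. Without ICI-myocarditis 3 it missed the threshold (3.72, limma adjusted p = 0.0766), and without control 3 the log2 fold change was 3.25. With a pseudocount of 5 it was 3.07, and limma-voom with quality weights gave 5.18, both past the threshold.

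**Figure D1:**
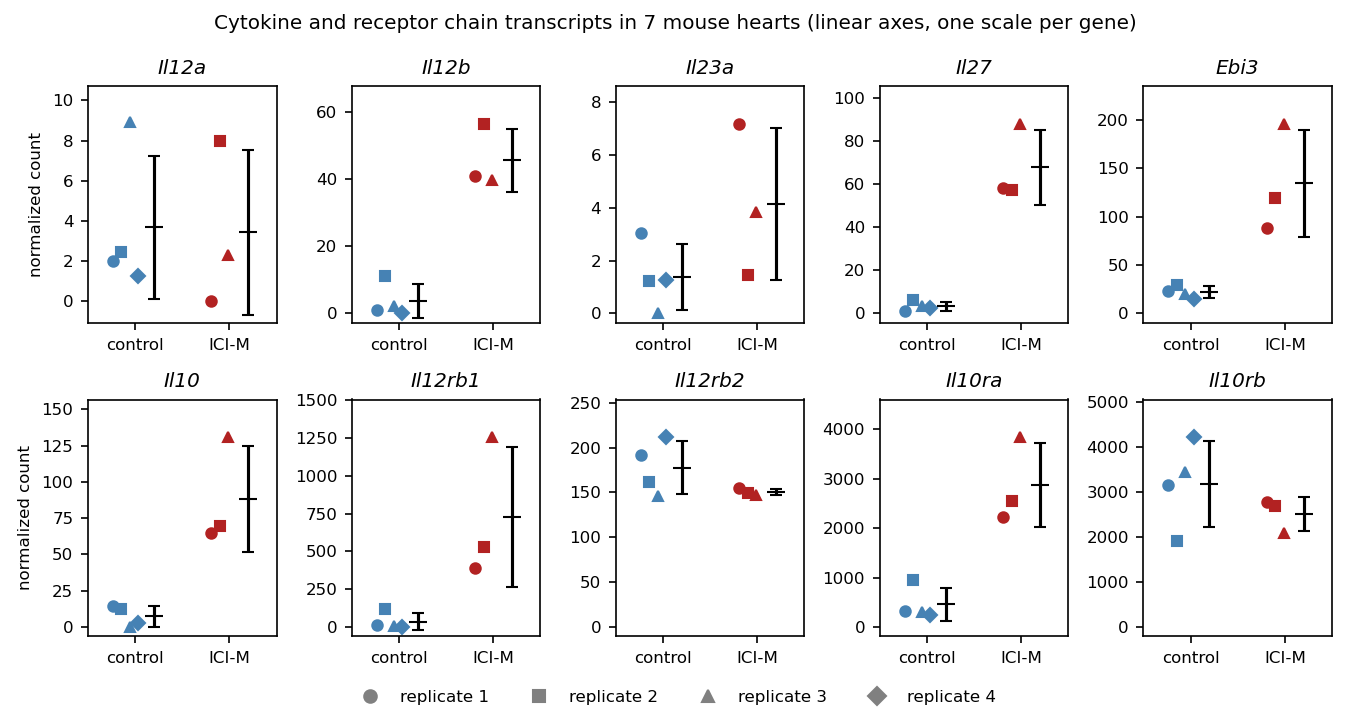
Normalized counts of the 10 transcripts in each library on linear axes with a separate scale per gene, with controls in blue and ICI-myocarditis (ICI-M) in red. Symbols mark the replicate number, and black bars give the mean and SD (n = 4 and n = 3). For Il12b, Il27, Ebi3, Il10, Il12rb1 and Il10ra all red points lie above all blue points, while Il12a and Il23a stay below 10 normalized counts.

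Of the receptor genes for IL-12, Il12rb1 passed the test and Il12rb2 did not. Il12rb1, whose product IL-12Rβ1 is also part of the IL-23 receptor, lies at chr8:70808449-70821424. It had 10.1, 118, 5.58 and 2.50 normalized counts in controls and 392, 529.8 and 1255 in ICI-myocarditis. The mean was 34.1 ± 56.3 (SD, n = 4) in controls and 725 ± 463 (SD, n = 3) in ICI-myocarditis. Control 2 held over 10 times the level of any other control and ICI-myocarditis 3 held more than the other two affected hearts, yet the groups stayed apart. Il12rb1 rose by 5.60 (SE 1.05, limma adjusted p = 0.00873), in this test the largest log2 fold change among the 8 tested members. The size of this change differed between settings. edgeR's test on the recovered reads gave 4.37 (edgeR adjusted p = 0.0293) and DESeq2 gave 4.40, while limma gave 6.66 without control 2 and 4.96 without control 4. The authors' deposited table lists 4.41 for Il12rb1 (SE 1.33, adjusted p = 0.00771). First place was not kept in every setting, since Il27 had 4.415 against 4.402 in DESeq2 and 4.417 against 4.411 in the authors' table.

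Il12rb2, which encodes the signal-transducing chain that recruits STAT4, lies at chr6:67291318-67376188. It had 192, 162, 146 and 211 normalized counts in controls and 154, 149 and 147 in ICI-myocarditis. The affected hearts lay within the range of the controls. The log2 fold change was -0.22 (SE 0.232, limma adjusted p = 0.567). A limit on this row is that 1519 of the 3794 exonic bases of Il12rb2 overlap Serbp1, an abundant gene on the other strand. Serbp1 had 3850 to 7182 normalized counts in controls and 4180 to 5032 in ICI-myocarditis, and its log2 fold change was -0.26 (limma adjusted p = 0.532). For every 1000 normalized counts of Serbp1 there were 24.7 to 42.0 of Il12rb2 in controls and 29.7 to 35.3 in ICI-myocarditis. Unless counting used strand, reads of Il12rb2 and Serbp1 in the shared stretch cannot be told apart. The values of Serbp1 and Apobr were added after the overlaps had been seen.

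Of the IL-10 receptor genes, Il10ra passed the test and Il10rb did not. Il10ra (chr9:45253837-45269149) encodes the ligand-binding chain. It had 323, 954, 303 and 241 normalized counts in controls and 2232, 2557 and 3838 in ICI-myocarditis. Control 2 again lay above the other controls and below every affected heart. Il10ra rose by 2.85 (SE 0.439, limma adjusted p = 0.00459), with a mean of 455 ± 334 (SD, n = 4) against 2876 ± 849 (SD, n = 3). Il10rb, whose product is shared by the receptors for IL-10, IL-22 and interferon lambda, lies at chr16:91406164-91425834. Il10rb had 3169, 1913, 3453 and 4218 normalized counts in controls and 2783, 2681 and 2091 in ICI-myocarditis. Control 2 was here the lowest library of all 7, and the groups overlapped. The log2 fold change was -0.29 (SE 0.278, limma adjusted p = 0.528). Exons of Il10rb share 569 of 3808 bases with the annotated gene Gm21970 on the same strand. Strand cannot tell reads of these genes apart in that stretch, and Gm21970 had no row. This limit also holds for the level and the ratio of Il10rb given below.

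Levels of different genes were compared per kilobase of exon, with exon lengths from GENCODE M21. In controls Il10rb ranked first at 837 ± 252 normalized counts per kb (SD, n = 4), followed by Il10ra at 130.1 ± 95.5, Il12rb2 at 46.8 ± 7.73 and Ebi3 at 19.0 ± 5.29. Each of these lay above the next in every control library. The libraries of Ebi3 overlapped those of Il12rb1 (8.32 ± 13.7), and from there on each gene overlapped the next, through Il10, Il27, Il12a and Il12b down to Il23a. In ICI-myocarditis the order was Il10ra at 822 ± 243 per kb (SD, n = 3), Il10rb at 661 ± 98.1, Il12rb1 at 177 ± 113, Ebi3 at 116 ± 47.9, Il10 at 67.4 ± 28.1, Il27 at 66.4 ± 17.02, Il12rb2 at 39.6 ± 0.961 and Il12b at 23.2 ± 4.76. Il10ra overlapped Il10rb, and Il12rb1, Ebi3, Il10 and Il27 each overlapped the next gene in that order. Il12rb2 stood below Il27 and above Il12b in every affected heart. Unless counting used strand, the level of Il12rb2 may include reads of Serbp1. Il12a and Il23a came last, at 2.01 ± 2.41 and 1.84 ± 1.28.

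**Figure D2:**
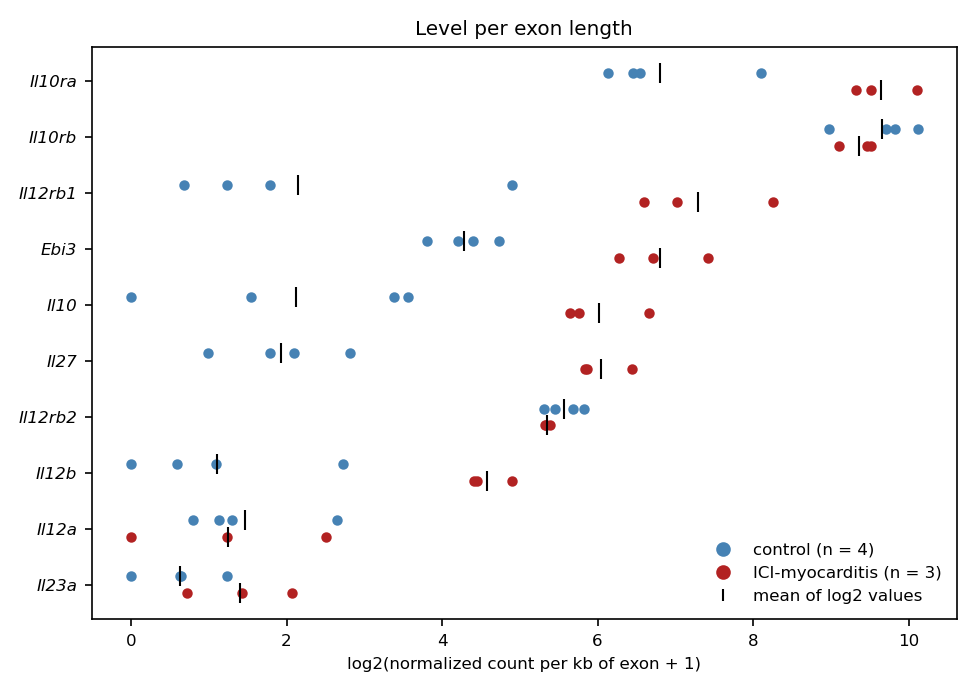
Level per exon length, as log2(normalized count per kb + 1), of the 10 transcripts in controls (blue, n = 4) and ICI-myocarditis (red, n = 3). Each point is a library and black ticks are means of the log2 values. In controls the Il12rb2 points lie above all Il12rb1 points, and in ICI-myocarditis below them. The Il12rb2 points may include reads of Serbp1, as use of strand in counting is not known.

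Ratios within a library compared partner chains without the scaling between libraries. The log2 ratio of Il10ra to Il10rb was -3.29, -1.004, -3.51 and -4.12 in controls and -0.32, -0.07 and 0.88 in ICI-myocarditis, a difference of 3.14 (exact permutation p = 0.0571, two-sided, adjusted over 5 ratios 0.0714). That of Il12rb2 to Il12rb1 was 4.12, 0.45, 4.48 and 5.92 in controls and -1.34, -1.82 and -3.08 in ICI-myocarditis, a difference of -5.82 (exact permutation p = 0.0571, adjusted 0.0714). In both receptor pairs the groups did not overlap, and control 2 was the control nearest to the affected hearts. The Il12rb2 values in this ratio may include reads of Serbp1 unless counting used strand. Il12rb1 held only 10, 5 and 2 reads in controls 1, 3 and 4. The log2 ratio of Ebi3 to Il27 fell by 1.61, from 3.59, 2.09, 2.28 and 2.19 to 0.59, 1.05 and 1.15, at the smallest exact permutation p that 35 splits allow (0.0286, adjusted 0.0714). Il27 held 1 to 5 reads in each control, and with a pseudocount of 5 this difference was -0.83. None of the 5 ratios passed after adjustment, at 0.05. Without control 2 the differences for the receptor pairs were 3.803 and -6.92, and without control 4 they were 2.76 and -5.10.

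The remaining ratios set the receptor genes against Ptprc, which encodes CD45 on all leukocytes. The log2 ratio of Il10ra to Ptprc was -0.58, -1.59, -1.87 and -1.10 in controls and -1.84, -1.43 and -1.45 in ICI-myocarditis, with overlapping groups (difference -0.29, exact permutation p = 0.514, adjusted 0.514). The log2 ratio of Il12rb1 to Ptprc was -5.45, -4.59, -7.40 and -7.21 in controls and -4.35, -3.70 and -3.06 in ICI-myocarditis (difference 2.46, exact permutation p = 0.0571, adjusted 0.0714). Il12rb1 was thus higher relative to Ptprc in each affected heart than in any control, and Il10ra was not. The ratios of Il12rb1 in controls 1, 3 and 4 rest on only 10, 5 and 2 reads of that gene. Control 2, with 96 reads, lay at -4.59, near ICI-myocarditis 1 at -4.35. In bulk tissue a change in the number of cells of a type and a change in RNA per cell cannot be told apart.

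**Figure D3:**
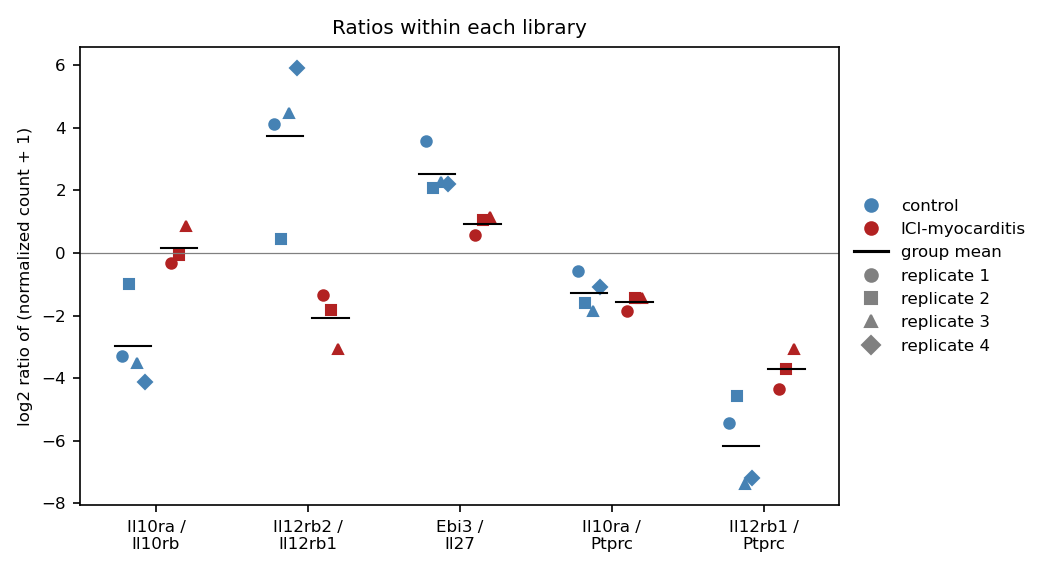
Log2 ratio of (normalized count + 1) for 5 gene pairs in each library, controls in blue and ICI-myocarditis in red, with symbols for the replicate number and bars for group means. Groups lie apart in every pair but Il10ra to Ptprc, and control 2 (blue square) is the control nearest the red points for both receptor pairs. Il12rb2 values may include reads of Serbp1 unless counting used strand.

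Markers of some leukocyte types were higher alongside the 6 transcripts that passed. T cell markers were higher in 7 of 7 genes with a row (8 listed), with a summed level of 146 to 1430 normalized counts in controls and 6593 to 9963 in ICI-myocarditis. NK markers were higher in 3 of 5 genes (Klrk1, Klrd1 and Nkg7), with sums of 27.5 to 575 and 2426 to 3435. Nkg7, Klrk1 and Klrd1 made up most of these sums, with means of 1804, 627 and 488 in ICI-myocarditis. Ncr1 and Klrb1c, with means of 32.4 and 47.1 there, did not pass (limma adjusted p = 0.395 and 0.0934), and their groups overlapped. Macrophage and monocyte markers were higher in 7 of 9, with sums of 9144 to 14304.5 and 30504 to 44572. Conventional dendritic cell markers were higher in 5 of 8 (all but Zbtb46, Clec9a and Cd209a), with sums of 723 to 2891 and 2977 to 4612. None of these markers was at 0 in all libraries. Over all genes tested, 11.7% passed as higher and 15.7% in either direction. Some markers, among them Cd3d, Cd8b1, Klrd1 and Flt3, met the limit on low values only with their ICI-myocarditis libraries. The marker counts are therefore descriptions and no support. Neutrophil markers were higher in 1 of 3 tested genes, B cell markers in 1 of 4, and cardiomyocyte markers passed in 0 of 6. All 6 cardiomyocyte markers had log2 fold changes below 0 (median -0.86), and their sums overlapped between groups. Endothelial markers were lower in 3 of 5, with sums of 22917 to 58073 in controls and 14194 to 21324 in ICI-myocarditis, and mast cell markers were lower in 2 of 4. Plasma cell markers were higher in 1 of 4, with sums of 1846 to 2554 and 2929 to 3928. The marker that passed was the J chain gene Igj, with means of 11.8 in controls and 473 in ICI-myocarditis. Xbp1, with means of 1816 and 2299, made up most of these sums and did not pass (limma adjusted p = 0.347). Among controls, control 2 had the highest sum in the T cell, NK, macrophage and conventional dendritic cell lists. It was also the highest control for Il12b, Il12rb1, Il27, Ebi3 and Il10ra. ICI-myocarditis 3 had the highest sum of the affected hearts in the same 4 lists. For Ncr1 and Klrb1c it was the lowest affected heart, at 18.3 and 24.5 normalized counts. It was the highest for Il12rb1, Il27, Ebi3, Il10 and Il10ra, but the lowest for Il12b. The part that these cell types had in the rises was not tested.

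For each tested transcript, the genes with the most similar profile over the 7 libraries were listed by the root mean square (RMS) difference of centred log2 values. Il12rb1 was nearest to Cd3e, a chain of the T cell receptor complex (RMS 0.188), and to the chemokine gene Ccl5 (0.345). Il10ra was nearest to Cd37 (0.118) and Arhgap30 (0.136). Il27 was nearest to Ctss, the lysosomal protease cathepsin S (0.210), and H2-DMa, an antigen-loading gene (0.229). Ebi3 was nearest to Tnfrsf1b (0.126) and Unc93b1 (0.140), and Il12b to Gpr174 (0.265) and Tnfsf8 (0.294). Il10 was nearest to Cdh1 (0.542) and Runx3 (0.772). The RMS difference also grows with the counting error of a low gene, and Il10 had 0 to 14 reads in controls. Its size therefore does not rank the members by closeness of match. Il12rb2 was nearest to Hes6 (0.0487) and Hmg20b (0.0537), and Il10rb to Lrrc1 (0.0564) and Ube2g1 (0.0735), genes that did not pass the test either. These are descriptions over 7 libraries that fall into 2 groups.

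Promoter sequences were at hand for 4 of the 10 genes (RefSeq, GRCm38.p6). The 250 bases before the start site are shown for Il12b and Ebi3, which both passed as higher, and for Il12rb2, which did not pass the test. The windows of Il12a, which was not measured, are left out. Capitals mark every match to the motifs searched on both strands.
Il12b, chr11:44399813-44400062, plus strand: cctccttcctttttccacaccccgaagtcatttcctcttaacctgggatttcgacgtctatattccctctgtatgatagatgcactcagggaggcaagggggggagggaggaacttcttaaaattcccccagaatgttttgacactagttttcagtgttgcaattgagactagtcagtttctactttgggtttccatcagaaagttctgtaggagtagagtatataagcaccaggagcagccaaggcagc
Ebi3, chr17:55952373-55952622, plus strand: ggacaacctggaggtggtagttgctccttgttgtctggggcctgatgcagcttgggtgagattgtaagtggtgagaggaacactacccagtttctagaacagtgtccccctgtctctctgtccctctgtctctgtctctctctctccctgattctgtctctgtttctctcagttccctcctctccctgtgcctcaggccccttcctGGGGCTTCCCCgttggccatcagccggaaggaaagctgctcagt
Il12rb2, chr6:67376189-67376438, minus strand: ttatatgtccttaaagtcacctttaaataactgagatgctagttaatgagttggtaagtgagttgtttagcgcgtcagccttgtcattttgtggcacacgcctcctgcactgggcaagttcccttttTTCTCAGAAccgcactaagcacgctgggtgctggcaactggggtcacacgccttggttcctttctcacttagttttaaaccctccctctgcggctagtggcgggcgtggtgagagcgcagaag
The motifs were GAAANNGAAA (core of the interferon-stimulated response element), GGAANNGAAA (ETS and IRF composite element), TTCNNNGAA (gamma-activated site, bound by STAT dimers), GGGNNNNNCC (a loose form of the NF-κB site) and TGANTCA (AP-1 site). GAAANNGAAA and GGAANNGAAA can overlap each other. Over all 32851 promoter windows of this length, they were found in 2.98%, 2.30%, 7.02%, 45.8% and 6.75%, in that order. Ebi3 held overlapping matches to GGGNNNNNCC within GGGGCTTCCCC, starting 44 bases before the start site. Il12rb2 held TTCTCAGAA, a match to TTCNNNGAA, starting 123 bases before it. The Il12b window held none of the motifs in these letters.

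The signalling partners of these receptors changed unevenly. Il27ra, the IL-27 receptor chain, rose by 1.24 (SE 0.359, limma adjusted p = 0.0468), from 154 ± 81.4 to 335 ± 39.0 normalized counts (SD, n = 4 and n = 3), but passed in 6 of 17 alternatives and, of those that left out a library, only without control 2. Its partner Il6st, which encodes gp130, did not pass (-0.0022, limma adjusted p = 0.996), and its sign changed in 5 of 17 alternatives. Il23r, the second chain of the IL-23 receptor, had at most 2 reads in any library and was not measured. Of 6 kinase and STAT genes used by these receptors, 3 rose and 3 did not pass. Stat4 rose by 3.89 (limma adjusted p = 0.0121). When ICI-myocarditis 3 was left out, the limma adjusted p of Stat4 was 0.0533. Jak2 rose by 0.82 (limma adjusted p = 0.0359). With a library left out, Jak2 still passed only without ICI-myocarditis 1 or control 2. Tyk2 (0.80), Stat3 (0.65) and Jak1 (-0.02) did not pass (limma adjusted p = 0.0815, 0.0810 and 0.954), and the sign of Jak1 changed in 5 of 17 alternatives.

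Genes known to respond to each cytokine were read as lists. Across the pathway lists 86 genes other than the 10 were named, of which 71 were tested. Of these 46 were higher, 1 was lower and 24 did not pass, with a median log2 fold change of 2.07 against -0.02 over all genes tested. Over all genes tested 11.7% passed as higher and 15.7% in either direction. Among the 71 were 10 genes that met the limit on low values only with their ICI-myocarditis libraries, 9 of which passed, so these counts and medians are descriptions and no support. Lists share a few genes (Tbx21, Socs3, Ahr and Il22). Of 15 T helper 1 and NK genes that respond to IL-12 and STAT4, 11 were higher and 4 did not pass (median 3.85). Ifng, the hallmark product of IL-12 signalling, rose by 5.96 (limma adjusted p = 0.00935) and Tbx21, which encodes the T helper 1 factor T-bet, by 4.49 (limma adjusted p = 0.00716). The killing gene Prf1 rose by 5.39, Ccl5 by 6.03, the activation marker gene Cd69 by 4.42 and the cytokine gene Lta by 3.58. The sizes moved in both directions under other settings. Without control 2 Ifng was higher by 7.08, Ccl5 by 7.05, Prf1 by 6.16, Tbx21 by 5.21, Cd69 by 5.14 and Stat4 by 4.69. In edgeR's test these genes were higher by 4.55, 4.81, 4.78, 3.85, 3.85 and 3.11, in that order, and DESeq2 gave 4.57 for Ifng and 4.85 for Ccl5. Without control 4 Ifng was higher by 5.14. With a pseudocount of 5 Lta was higher by 1.96, and by 4.58 in edgeR's test.

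The IL-23 and T helper 17 list was read in the same way. Of 13 genes only 7 could be tested, and Il17a, Il22 and Ccl20 had no read in any library. Of the 7, 3 were higher (Batf 3.11, Il17ra 1.53 and Il17rc 0.97) and 4 did not pass, with a median of 0.16. Batf acts in several lymphocyte types, and Il17ra and Il17rc encode receptor chains found on many cells. Il17ra passed in 14 and Il17rc in 11 of 17 alternatives, and both missed the threshold when ICI-myocarditis 3 or control 3 was left out. Il17ra also did so without control 1, and Il17rc without ICI-myocarditis 1 or 2 or control 4. Whether the T helper 1 and T helper 17 lists differed from each other was not tested.

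Of 11 genes that respond to IL-27, 8 were higher and 3 did not pass (median 3.94). The inhibitory receptor genes Tigit, Lag3 and Havcr2 rose by 4.77, 4.68 and 4.53, and the feedback inhibitor Socs1 by 4.55. Without control 2 these were 5.51, 5.41, 5.27 and 5.17, and in edgeR's test 4.10, 4.02, 3.92 and 4.05. Of 16 genes that respond to IL-10, 10 were higher, 1 was lower and 5 did not pass (median 1.92). Il1rn, the IL-1 receptor antagonist, rose by 5.32 (limma adjusted p = 0.00285), Arg1 by 3.82, Fcgr1 by 3.46 and Socs3 by 3.16. Cd163, a scavenger receptor of resident macrophages and a known target of IL-10, was the gene that fell, by 0.92 (SE 0.167, limma adjusted p = 0.00795), from 1252 ± 84.7 to 662 ± 54.8 normalized counts (SD, n = 4 and n = 3). With the replicate block Cd163 missed the threshold (limma adjusted p = 0.0626). Genes of these lists also respond to other cytokines, so the counts do not show which ligand acted.

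Of 11 other cytokine and receptor genes of the IL-10 family, 3 could be tested. Il22ra1, a partner of IL-10Rβ in the IL-22 receptor, rose by 2.23 (limma adjusted p = 0.0145), although it had only 5.48 ± 1.22 normalized counts in controls and did not pass when ICI-myocarditis 3 was left out (limma adjusted p = 0.0915). Ifnlr1 and Il20rb had log2 fold changes of -0.21 and -0.15 (limma adjusted p = 0.676 and 0.867), and the signs changed in 2 and 3 of 17 alternatives. Il19, Il20, Il22, Il24, Ifnl2 and Ifnl3 had no read in any library. Of 15 genes that induce IL-12 family cytokines in myeloid cells, 14 were tested, 11 were higher and 3 did not pass (median 2.15). The receptor genes Tlr9 and Tlr2 rose by 3.27 and 2.23, Irf5 by 2.95 and the adaptor Myd88 by 1.33.

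**Figure D4:**
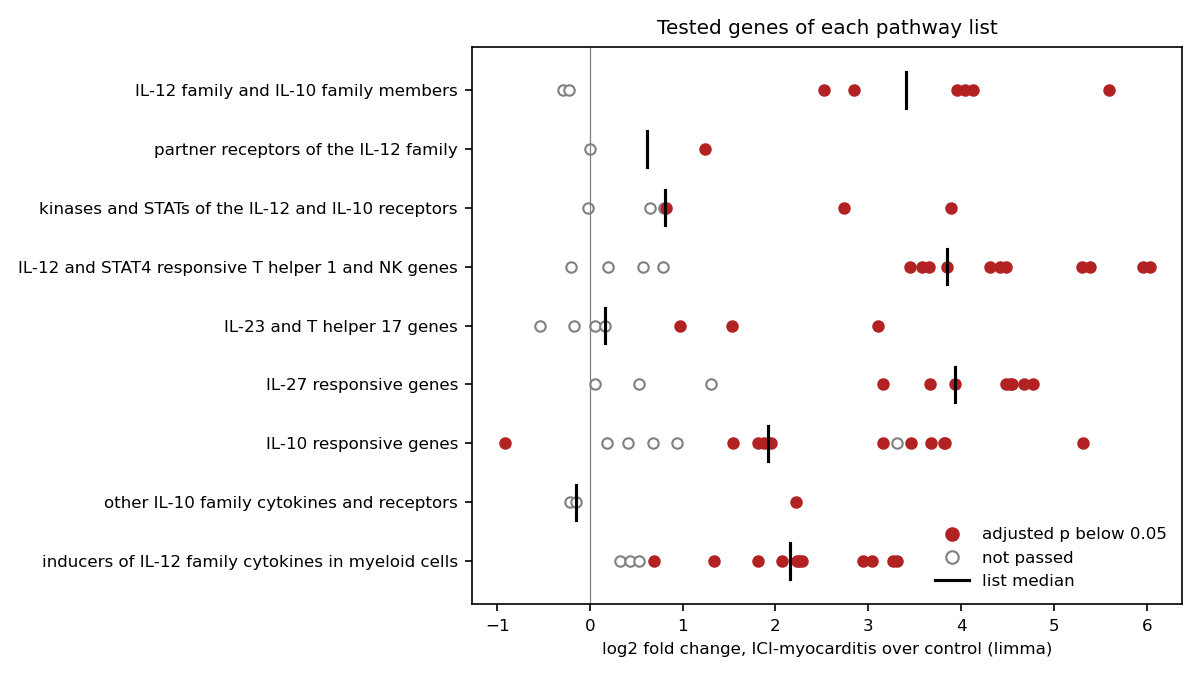
Log2 fold change (ICI-myocarditis over control, limma) of each tested gene in 9 pathway lists, filled where the adjusted p was below 0.05, with the list median as a black line. Filled points lie to the right of 0 except Cd163 in the IL-10 list, and the T helper 17 list has a median of 0.16.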

How the data were processed

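Ventricle RNA of 7 mice was sequenced, and 1 table of 23420 gene rows was used. Reads were aligned with STAR 2.7.3 to GRCm38 (mm10), per the submitters' processing notes. The counting program, annotation and use of strand are not given in the sources used here. The authors deposited a signal value per gene and library, in which the reads of a library share 1 divisor (its size factor), as the steps between values show. Dividing by the smallest step recovered whole reads for 100% of values in all 7 libraries (within 0.01 of a whole number). The step of control 1 lies so close to 1 that this is a weaker sign there. Further deposited columns give the authors' own comparison: log2 values (fold change and error), a score that is their test statistic, and a p-value, raw and adjusted.

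limma 3.58.1 (R 4.3.3), with trend and robust variance, was fitted on log2(value + 1) over the 15258 genes that reached 10 normalized counts in 3 or more libraries, and p-values were Benjamini-Hochberg adjusted over all of them. edgeR 4.0.16, DESeq2 1.42.0 and limma-voom on the recovered reads, other pseudocounts, scalings and filters, a replicate block and each library left out were alternatives. The fits were tested on simulated data, where DESeq2 made a larger share of wrong calls than limma or edgeR. Ratios were compared by an exact permutation test over 35 splits. The members and lists were chosen with earlier results of these data known. Besides the 10 members and a fixed set of receptor and signalling genes, at most the 4 genes of each list with the lowest p were named, plus those without reads, Cd163 (the 1 listed gene that fell) and the overlapping genes, and for each tested member the 2 genes nearest in profile. The labels number the mice without saying more of how they were bred, so p-values measure the spread between these animals. Counting error sets the precision of genes under about 10 reads, and as no molecular identifiers are mentioned, reads may share a molecule. Some genes of the lists are counted but not reported here by name.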

Additional observations from a re-analysis of the deposited data

Results flagged for a closer look

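In 48 results read over the 4 controls, 3 had a control whose gap to its neighbour, divided by the whole range, was above Dixon's critical value for 4 samples. Chance gives about 1 in 20. The log2 ratio of Ebi3 to Il27 was highest in control 1, with a gap of 0.877 of the range. Lag3 and Tlr9 were highest in control 2, with gaps of 0.845 and 0.868. None of the 8 tested members was among them by its own log2 level.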

How the results depend on the processing

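The number of members called was 6 in 16 of 17 alternatives and 5 without ICI-myocarditis 3, where Il10 was lost. Genes called over the whole table numbered 2397. They were 4003 with limma-voom and ranged from 1080 (without ICI-myocarditis 3) to 3345 (without control 2) when a library was left out, with 1546, 1509 and 1300 without ICI-myocarditis 2, control 1 and control 3. The deviations of same-numbered libraries correlated at -0.27, -0.21 and -0.08, and those of other pairs at -0.48 to 0.45. With so wide a spread these values cannot show whether replicate numbers pair the libraries. With the replicate block 1780 genes and the same number of members (6) were called. Sign changes concerned genes with a fold change near 0. With scaling by library total the log2 fold changes of Il6st, Jak1 and Il20rb were 0.16, 0.14 and 0.011, with limma-voom that of Ifnlr1 was 0.017, and with the replicate block those of Il6st and Jak1 were 0.035 and 0.011. Cd163 was lost under the replicate block (limma adjusted p = 0.0626). With a library left out the ranges were -0.10 to 0.066 for Il6st, -0.096 to 0.020 for Jak1, -0.48 to 0.16 for Il20rb and -0.39 to 0.057 for Ifnlr1. The 5 ratios kept their direction in all 11 alternatives, and none passed in any of them. With a library left out, or with the replicate block, too few arrangements of the libraries remain for an adjusted p to pass. Stat3 passed in 3 and Tyk2 in 2 of 17 alternatives. The cause of these changes was not tested. Depth limits Il12a, Il23a and Il23r, with 0 to 11 reads a library.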
